A study of Ovis aries with 9 samples.

Results

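The kelch genes of muscle were followed through fetal growth of the sheep back muscle. Members were the loci whose gene name holds KLHL30, KLHL31, KLHL33, KLHL34, KLHL38, KLHL40 or KLHL41, and all 7 names were found, at 1 locus each, among 22605 loci. The samples were longissimus dorsi, the long muscle along the spine, from Chinese merino fetuses of gestation day 85 (D85), day 105 (D105) and day 135 (D135), with 3 libraries per day. All fetuses shared breed and tissue, no treatment is named, and nothing in the labels ties each library to a fetus of its own. The p-values therefore measure only how these libraries spread, which may be technical.

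BTB-kelch proteins are adaptors of cullin 3 ubiquitin ligases: the BTB domain binds the cullin and the propeller of kelch repeats binds the protein to be marked. In skeletal muscle several of them act on the sarcomere rather than on soluble regulators. KLHL40 and KLHL41 hold thin filament proteins in place, and in people loss of either gene gives nemaline myopathy, a disease in which rods of thin filament and Z-disc material fill the fibres.

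The values were FPKM, a fragment count scaled to transcript length and to mapped fragments, so that levels can be set side by side between genes. Tests were made on log2(FPKM + 1), a scale that understates changes of low genes, with limma over the 13086 loci that reached 1 FPKM in at least 3 libraries, and a locus was called at an adjusted p under 0.05. The deposited gene ontology terms placed all 7 kelch genes in the Cul3-RING ubiquitin ligase complex, a term that 64 loci carried. The protein models of KLHL30, KLHL34 and KLHL40 were marked as low quality in the deposited descriptions, and that of KLHL40 also as partial. In the RefSeq order of genes KLHL40 overlaps its neighbour HHATL. The counting is not stated to use strand, so reads of the overlap cannot be divided between KLHL40 and HHATL with certainty.

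Libraries held 395797 to 489270 FPKM in total, with a depth, read from the steps between low values, of 0.993 to 1.2 times D85 replicate 1. Only steps close to equal depth were kept for this estimate, so it could not show a large difference. It rests on 22 to 45 loci per library. The number of reads is not known from FPKM. D105 replicate 2 stood apart in markers of other tissues. The summed level of 9 tendon and cartilage markers was 425 FPKM in that library against 67.7 and 79.7 FPKM in the other D105 libraries, and that of 10 adipocyte markers was 131 FPKM against 13.9 and 16.1 FPKM. The D135 libraries were spread as well. Their tendon and cartilage sums ran from 50.7 FPKM in replicate 1 to 240 FPKM in replicate 3, and their adipocyte sums from 23.4 to 91.8 FPKM. The 10 muscle fibre markers, which include ACTA1, CKM, DES and TTN, were present in all 9 libraries, with sums of 5675 to 7763 FPKM at D85, 6872 to 9201 FPKM at D105 and 15040 to 18250 FPKM at D135. Over all tested loci the median log2 change was -0.02 between D105 and D85. It was -0.33 between D135 and D105 and -0.35 between D135 and D85, and after median-of-ratios scaling it was 0.01 in both.

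KLHL41 was by far the most abundant kelch transcript, and its level dipped in the middle of the series. It was at 423, 305 and 299 FPKM in the D85 libraries, at 76.1, 65.9 and 82.9 FPKM at D105 and at 162, 467 and 577 FPKM at D135. All 3 D105 libraries lay below the 6 others, and D135 replicate 1 lay well under the other D135 libraries. Of all tested loci, 0.382% had the D105 libraries below the 6 others in this way. This pattern was singled out after its values were seen.

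KLHL41 made up 90.1% to 92.9% of the summed FPKM of the 7 genes at D85, 68.1% to 69.5% at D105 and 75.7% to 91.9% at D135. The sum of the other 6 genes was 30.5 to 32.6 FPKM at D85 and 30.2 to 38.9 FPKM at D105, and was higher at D135 with 50.8 to 55.5 FPKM.

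KLHL31 came second on every day. This gene is needed for normal muscle in mice, where the actin crosslinker filamin C has been described as a target of its protein. KLHL31 was at 16.8, 14.8 and 17.9 FPKM at D85, at 13.9, 13.9 and 17.2 FPKM at D105 and at 18.3, 21.4 and 21.8 FPKM at D135. The D135 libraries lay above all others, while those of D85 and D105 overlapped.

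KLHL40 was the one member whose mean was lower on each later day. It was at 8.40, 9.30 and 7.92 FPKM at D85, at 9.47, 5.95 and 8.45 FPKM at D105 and at 7.30, 6.56 and 4.86 FPKM at D135. The D135 libraries lay below those of D85 and overlapped with those of D105, and D105 replicate 2 was the low library of its day.

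KLHL33 and KLHL34, whose roles in muscle are little described, began near the floor of the table. KLHL33 was at 0.741, 0.739 and 0.437 FPKM at D85, at 2.39, 3.78 and 3.61 FPKM at D105 and at 10.6, 9.68 and 9.09 FPKM at D135. The 3 days did not overlap, each being above the day before, an order found in 1.54% of all tested loci. KLHL34 was at 0.104, 0.0523 and 0.157 FPKM at D85, at 0.248, 0.477 and 0.111 FPKM at D105 and at 1.74, 5.32 and 5.25 FPKM at D135. Its D135 libraries stood above all others, and D135 replicate 1 had the lowest value of that day, as it had for KLHL41.

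KLHL34 reached 1 FPKM only in the D135 libraries and KLHL33 only in those of D105 and D135. Both were therefore tested through the days on which they were high. The D85 values of KLHL34 were 1.98, 1 and 3 times the lowest of them, so they may rest on a handful of fragments.

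KLHL38 and KLHL30, both muscle-enriched in other mammals, lay between these extremes. KLHL38 was at 3.78, 2.50 and 3.11 FPKM at D85, at 2.94, 3.09 and 4.31 FPKM at D105 and at 7.51, 7.22 and 5.70 FPKM at D135. The D135 libraries were above all others. KLHL30 was at 2.67, 3.04 and 3.06 FPKM at D85, at 4.39, 2.95 and 5.14 FPKM at D105 and at 6.38, 5.29 and 4.12 FPKM at D135. Its D135 libraries were above those of D85 and overlapped with those of D105.

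**Figure D1:**
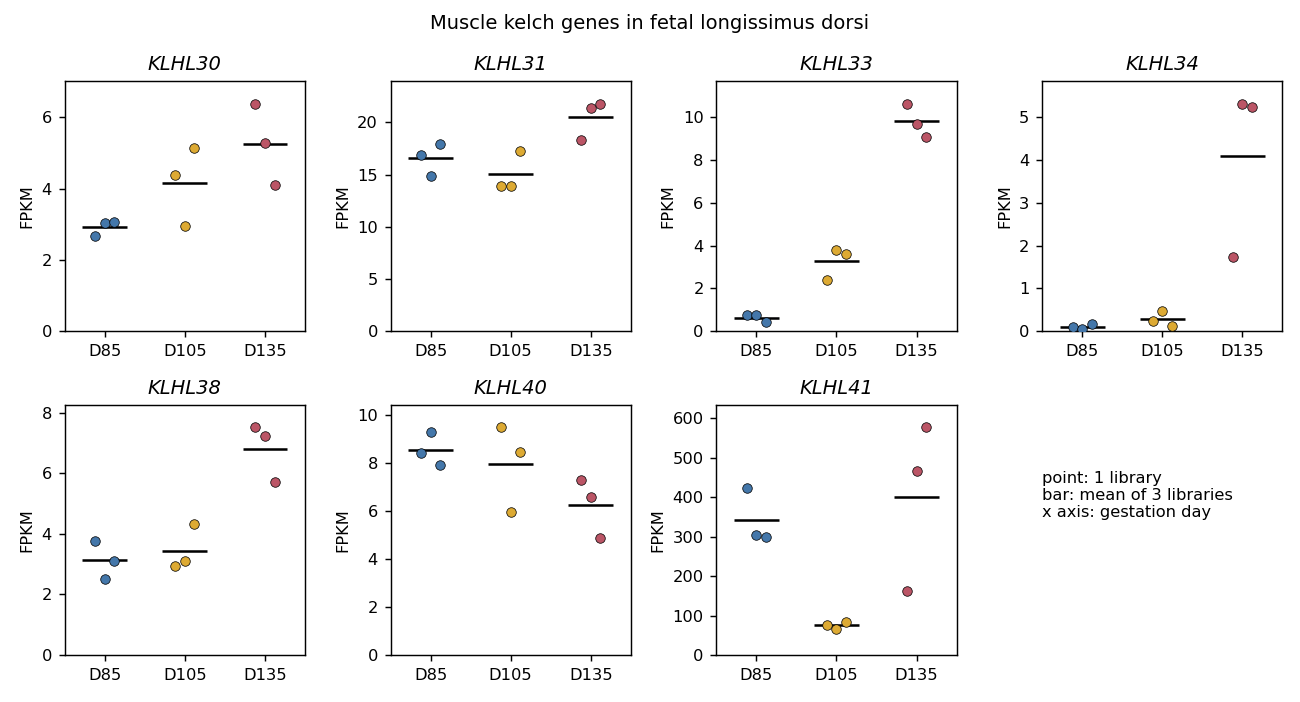
FPKM of the 7 muscle kelch genes in each library (points) by gestation day, with the mean of 3 libraries as a bar; each panel has its own axis from 0. KLHL41 is lowest at D105, where its libraries sit between 65.9 and 82.9 FPKM, and KLHL33 is higher on each later day.

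The order of the genes by level changed over time. At D85 it ran KLHL41, KLHL31, KLHL40, KLHL38, KLHL30, KLHL33, KLHL34, and only KLHL38 and KLHL30 overlapped as neighbours. At D105 KLHL40 was followed by KLHL30, KLHL38, KLHL33 and KLHL34, and KLHL38 overlapped with KLHL30 and with KLHL33. At D135 KLHL33 stood next below KLHL31, and the ranges of KLHL38, KLHL40, KLHL30 and KLHL34 each overlapped with that of the next. Among all tested loci the mean of KLHL33 stood at the 1.86th percentile at D85, the 35.7th at D105 and the 80.5th at D135. KLHL33 passed the filter only through D105 and D135, and loci low on every day are left out of this ranking. Its D85 percentile therefore partly reflects the filter. KLHL40 kept to the 67.5th to 69.3rd percentile on all 3 days.

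Between D85 and D105 few genes of the table moved: limma called 26 of 13086 loci, 0.199%, with 1611 at an unadjusted p under 0.05. Of the 7 kelch genes 1 rose, 0 fell and 6 did not pass, beside 0.145% of loci called higher and 0.0535% called lower. In 1 member, KLHL33, the D105 libraries were all above those of D85, as at 8% of loci. The gene that rose was KLHL33, with means of 3.26 ± 0.760 FPKM at D105 and 0.639 ± 0.175 FPKM at D85 (SD, n = 3 each; 5.1-fold; log2 change 1.37 ± 0.16 SE, adjusted p = 0.0257). Its call was lost without D85 replicate 1, 2 or 3 (adjusted p = 0.0622, 0.0653 and 0.0622), without D105 replicate 2 or 3 (adjusted p = 0.0547 and 0.0685) and without D135 replicate 2 (adjusted p = 0.0571). It was also lost in a fit of the D105 and D85 libraries alone (adjusted p = 0.0975) and with a filter of 5 FPKM (adjusted p = 0.061).

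KLHL41 had the larger difference between these days and did not pass. Its means were 75 ± 8.54 FPKM at D105 and 342 ± 70.2 FPKM at D85 (SD, n = 3 each), a ratio of 0.219, with a log2 change of -2.16 ± 0.43 SE and an adjusted p of 0.125. Its D105 libraries were all below those of D85, as at 10.4% of loci. All 9 libraries share 1 estimate of the spread, and KLHL41 varied most at D135. Without D135 replicate 1 the log2 change was again -2.16 with an adjusted p of 0.0121, and in a fit of the D105 and D85 libraries alone the adjusted p was 0.0218. Without D105 replicate 2 the change was -2.07 with an adjusted p of 0.251.

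The other log2 changes for D105 against D85 lay between -0.13 for KLHL31 and 0.37 for KLHL30. That of KLHL40 was -0.11 with all libraries and 0.06 without D105 replicate 2. Of the 10 fibre markers limma called 0 between these days, with 3 at an unadjusted p under 0.05. Of 9 endothelial markers 1 rose and 0 fell, with 7 at an unadjusted p under 0.05. In 8 of them the D105 libraries were all above those of D85, as at 8% of loci. The summed level of the endothelial markers was 255 to 267 FPKM at D105 and 167 to 197 FPKM at D85. The part of other cells in the kelch values was not tested, and in bulk tissue fewer cells of a type and less RNA per cell cannot be told apart.

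Over the later interval most of the kelch genes rose. Of the 7 genes 5 rose, 0 fell and 2 did not pass for D135 against D105, where 39.5% of all tested loci were called, 4.47% higher and 35% lower. Their median log2 change was 0.82, beside -0.33 for all tested loci. All 5 genes that rose had D135 libraries above all D105 libraries, as did 6.43% of tested loci, while 47.7% had them all below. With no filter on low values the same 5 genes were called.

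KLHL41 averaged 402 ± 215 FPKM at D135 and 75 ± 8.54 FPKM at D105 (SD, n = 3 each; 5.36-fold; log2 change 2.22 ± 0.43 SE, adjusted p = 0.00636). KLHL34 averaged 4.10 ± 2.05 FPKM at D135 and 0.279 ± 0.185 FPKM at D105 (log2 change 1.91 ± 0.31 SE, adjusted p = 0.00368), and with a pseudocount of 0.1 the log2 change was 3.43. KLHL33 averaged 9.80 ± 0.772 FPKM at D135 and 3.26 ± 0.760 FPKM at D105 (3-fold; log2 change 1.36 ± 0.16 SE, adjusted p = 0.00123). Leaving out any 1 library ended the call of none of these 3 genes, nor that of KLHL38.

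KLHL38 averaged 6.81 ± 0.974 FPKM at D135 and 3.45 ± 0.752 FPKM at D105 (1.98-fold; log2 change 0.82 ± 0.17 SE, adjusted p = 0.0081). KLHL31 had the smallest called change, with 20.5 ± 1.92 FPKM at D135 and 15.0 ± 1.90 FPKM at D105 (1.36-fold; log2 change 0.43 ± 0.12 SE, adjusted p = 0.0267). The KLHL31 call was lost without D105 replicate 1 or 2 (adjusted p = 0.0808 and 0.0744) and without D135 replicate 2 or 3 (adjusted p = 0.0824 and 0.0783). The 2 genes that did not pass were KLHL30, with a log2 change of 0.29 ± 0.19 SE, and KLHL40, with -0.30 ± 0.18 SE. After median-of-ratios scaling KLHL30 passed with 0.67 (adjusted p = 0.0475), and the change of KLHL40 was 0.10.

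As deposited, 585 loci were higher and 4579 lower at D135 than at D105, against 1389 higher and 911 lower after median-of-ratios scaling, and 986 higher and 1072 lower after quantile normalization. Among the kelch genes the median-of-ratios values gave 6 higher and 0 lower, and the quantile values 5 higher and 0 lower.

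Muscle fibre markers were higher as well. Of 10 muscle fibre markers 6 rose and 0 fell for D135 against D105, and their mean log2 level was 9.02 ± 0.01 at D135 and 8 ± 0.06 at D105 (SD, n = 3 each). Taken as the difference from that mean within each library, KLHL33 was at -5.59 ± 0.11 at D135 and -5.93 ± 0.33 at D105, KLHL38 at -6.07 ± 0.19 at D135 and -5.86 ± 0.25 at D105, and KLHL31 at -4.60 ± 0.12 at D135 and -4.01 ± 0.17 at D105. KLHL40 was at -6.18 ± 0.26 at D135 and -4.86 ± 0.25 at D105, and the gap between these means was the widest of the 7. KLHL30 was at -6.39 ± 0.27 at D135 and -5.66 ± 0.29 at D105. KLHL41 was at -0.56 ± 0.97 at D135 and -1.76 ± 0.13 at D105, and KLHL34 at -6.77 ± 0.68 at D135 and -7.66 ± 0.25 at D105. The scale of log2(FPKM + 1) understates changes of low genes but hardly those of the markers. On it the D135 mean was above that of D105 for 3 members, KLHL33, KLHL34 and KLHL41, and below it for 4. KLHL38 is one of these 4. Its FPKM was 1.98-fold higher at D135, while the mean log2 level of the markers was 9.02 beside 8, so KLHL38 did not outpace the markers. These differences were not tested.

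**Figure D2:**
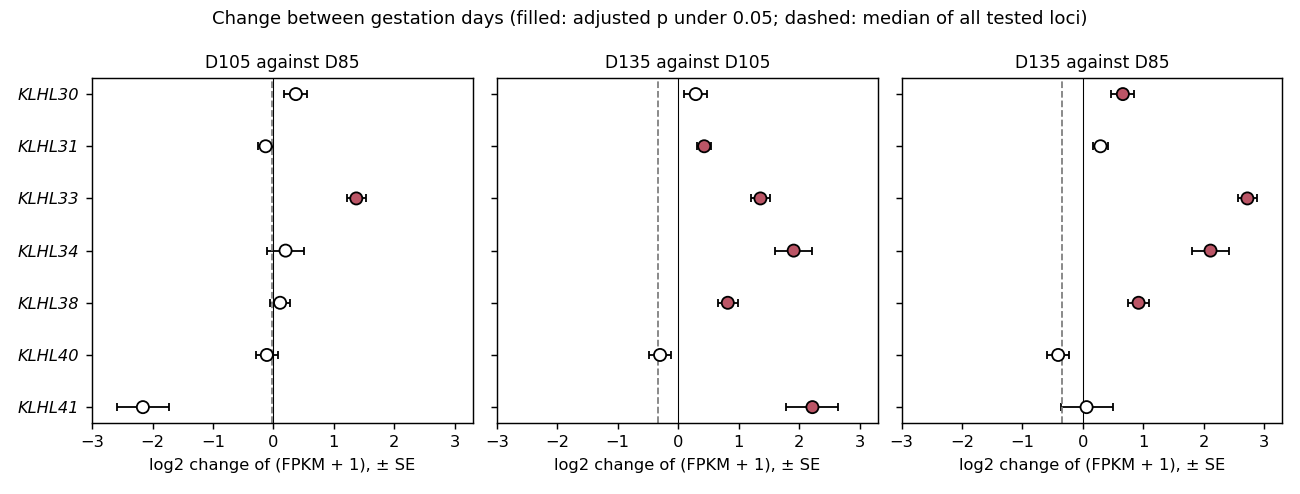
Log2 change of FPKM + 1 with its SE for each kelch gene in the 3 comparisons; filled points had an adjusted p under 0.05, and the dashed line is the median of all 13086 tested loci. KLHL33 is filled in all 3 panels, and KLHL41 moves by -2.16 and then by 2.22.

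Over both intervals, D135 against D85, 4 kelch genes rose, 0 fell and 3 did not pass, beside 46.6% of all tested loci called, 6.9% higher and 39.7% lower. In 5 of the 7 the D135 libraries were all above those of D85 and in 1 all below, beside 9.42% and 48.8% of loci. The split of all called loci was 903 higher and 5194 lower, against 1952 higher and 1642 lower after median-of-ratios scaling and 1599 higher and 1943 lower after quantile normalization. KLHL33 averaged 9.80 ± 0.772 FPKM at D135 and 0.639 ± 0.175 FPKM at D85 (15.3-fold; log2 change 2.72 ± 0.16 SE, adjusted p = 8.28e-05; SD, n = 3 each), and ranked 17th of the tested loci by p-value. KLHL34 averaged 4.10 ± 2.05 FPKM at D135 and 0.104 ± 0.0524 FPKM at D85 (log2 change 2.11 ± 0.31 SE, adjusted p = 0.00135, and 4.24 with a pseudocount of 0.1). KLHL33 and KLHL34 passed the filter only through their later libraries, which limits what that rank and these p-values mean. With no filter on low values both were still called.

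Smaller rises were seen for KLHL38, with a log2 change of 0.92 ± 0.17 SE (2.18-fold, adjusted p = 0.00348), and KLHL30, with 0.66 ± 0.19 SE (1.8-fold, adjusted p = 0.0224). The KLHL30 call was lost without D85 replicate 1 or 2 (adjusted p = 0.0663 and 0.0502) and without D135 replicate 1 or 2 (adjusted p = 0.0694 and 0.0616). KLHL31 did not pass, with a log2 change of 0.29 ± 0.12 SE and an adjusted p of 0.0821, although its D135 libraries were all above those of D85. It passed with 0.74 after median-of-ratios scaling (adjusted p = 0.00751), 0.54 after quantile normalization (adjusted p = 0.0179) and 0.41 with totals set equal without the 50 highest loci (adjusted p = 0.0443).

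KLHL40 had a log2 change of -0.41 ± 0.18 SE between D135 and D85 (adjusted p = 0.101), close to the median of -0.35 over all loci, and of 0.01 after median-of-ratios scaling. KLHL41 had 0.06 ± 0.43 SE (adjusted p = 0.919). Without D135 replicate 1 its change was 0.62 (adjusted p = 0.0426). A difference over any of the 3 days, by limma's moderated F test, passed for KLHL33, KLHL34, KLHL38 and KLHL41 (adjusted p = 0.000204, 0.00253, 0.00642 and 0.00665), where 43.2% of tested loci passed.

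**Figure D3:**
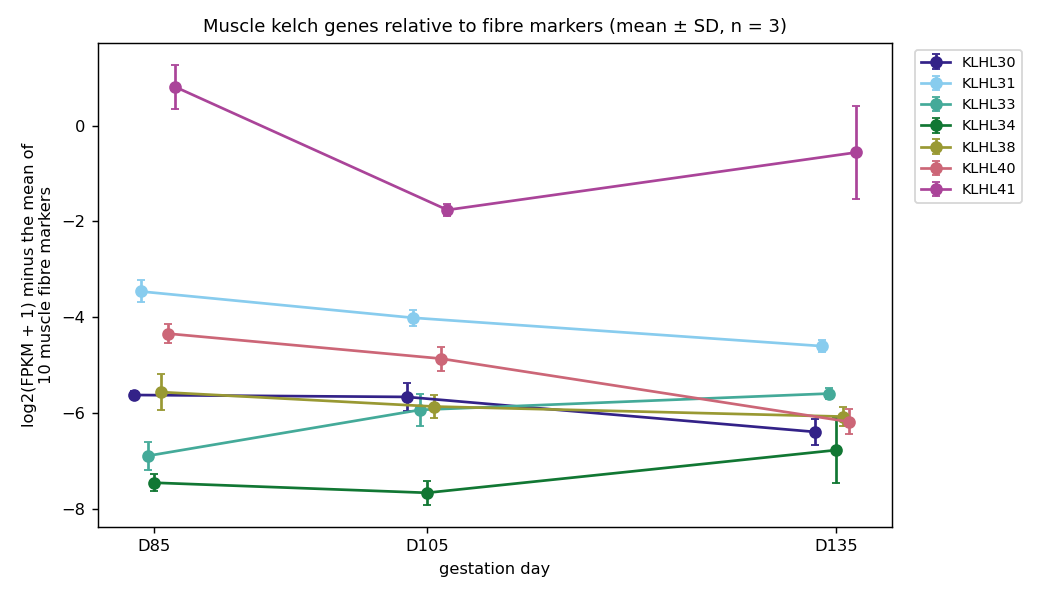
Log2(FPKM + 1) of each kelch gene minus the mean of 10 muscle fibre markers in the same library, by gestation day (mean ± SD, n = 3). KLHL33 is higher at D135 than at D85 on this scale (-5.59 and -6.89), as is KLHL34 (-6.77 and -7.45). The means of KLHL30, KLHL31, KLHL38, KLHL40 and KLHL41 are lower.

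Transcripts of the proteins that KLHL40 and KLHL41 are known to act on were measured in the same libraries, while protein levels were not. NEB encodes nebulin, the ruler of the thin filament, and LMOD3 encodes leiomodin 3, which builds actin filaments, and KLHL40 has been reported to stabilise both in mice. NRAP, a scaffold of myofibril assembly, has been described as a target of KLHL41. Of 17 listed thin filament partners and nemaline myopathy genes, 16 were in the table and 15 were tested. For D135 against D105, 8 rose, 0 fell and 7 did not pass, against 4.47% of loci called higher. Their median log2 change was 0.67, beside -0.33 for all loci.

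For D135 against D85, 10 genes of this list rose, 1 fell and 4 did not pass, with a median of 1.01 beside -0.35. Of all tested loci 6.9% were called higher and 39.7% lower. For D105 against D85 limma called 0, with 2 at an unadjusted p under 0.05, NEB and TMOD4. TMOD4 had a log2 change of 1.17 there (adjusted p = 0.0648), and it passed without D135 replicate 3 (adjusted p = 0.0439) and after quantile normalization (adjusted p = 0.0498). The locus of NEB, joined with LOC105609580, averaged 521 ± 11.6 FPKM at D135 and 261 ± 43.3 FPKM at D85 (log2 change 1.01 ± 0.13 SE, adjusted p = 0.000865; SD, n = 3 each). LMOD3 averaged 39.8 ± 7.30 FPKM at D135 and 24.3 ± 3.19 FPKM at D85 (log2 change 0.68 ± 0.18 SE, adjusted p = 0.0145). NRAP averaged 53.4 ± 12.3 FPKM at D135 and 23.3 ± 2.91 FPKM at D85 (log2 change 1.14 ± 0.24 SE, adjusted p = 0.00612).

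TMOD4, a tropomodulin that caps thin filaments and shares its locus with VPS72, had a log2 change of 2.60 for D135 against D85. LMOD2, the leiomodin best known from the heart, had 1.98, and ACTA1, skeletal alpha-actin and also one of the 10 fibre markers, had 2.26, all of them called. MYPN, a Z-disc protein, was called at 0.52 (adjusted p = 0.025), but not without D85 replicate 1 or 3 (adjusted p = 0.074 and 0.0657) or without D135 replicate 1 or 2 (adjusted p = 0.0653 and 0.0811). TNNT1 and TPM3, the slow troponin T and slow tropomyosin, had called changes of 3.74 and 2.91, and TPM2, beta-tropomyosin, of 1.35. UNC45B, the myosin chaperone, was the gene that fell, to 51.0 ± 3.56 FPKM at D135 against 90.7 ± 3.23 FPKM at D85 (log2 change -0.82, adjusted p = 0.018, and -0.35 with adjusted p = 0.301 after median-of-ratios scaling). Its call was also lost without D135 replicate 2 or 3 (adjusted p = 0.052 and 0.0526).

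Members of this list that did not pass for D135 against D85 were FLNC, filamin C (log2 change -0.15), CFL2, muscle cofilin (0.54), MYO18B, an unconventional myosin (0.24), and TMOD1, another tropomodulin (0.30). On median-of-ratios values MYO18B passed with 0.69 (adjusted p = 0.0209) and TMOD1 with 0.74 (adjusted p = 0.0203), and on quantile values TMOD1 passed with 0.59 (adjusted p = 0.0354). KBTBD13, the kelch gene of a further nemaline myopathy, stayed below the filter, at 2.30, 1.14 and 0.668 FPKM at D135 and at most 0.527 FPKM in the earlier libraries.

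Whether the kelch genes and their partners changed unequally was asked with log2 ratios within each library. The 6 ratios were compared over the 3 days by an exact permutation test of the F statistic over all distinct assignments of libraries to days, whose smallest p is 0.00357, with adjustment over the 6 ratios. The ratios of KLHL40 to both partners differed between days. Its log2 ratio to NEB was -4.50, -4.82 and -4.98 at D85, -5.02, -5.56 and -5.08 at D105 and -5.94, -6.13 and -6.50 at D135, with no overlap between days (exact permutation p = 0.00357, the smallest possible, adjusted p = 0.00714).

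The ratio of KLHL40 to LMOD3 was -1.40 ± 0.14 at D85, -1.73 ± 0.09 at D105 and -2.49 ± 0.44 at D135 (SD, n = 3; exact permutation p = 0.00357, adjusted p = 0.00714). Again the 3 days did not overlap. Between D135 and D85 the mean difference was -1.09 against LMOD3 and -1.42 against NEB on the log2 scale. With any 1 library left out the adjusted p was at most 0.0429 for LMOD3 and 0.0357 for NEB. The fall was not particular to these partners. Against the fibre marker mean KLHL40 was at -4.16 to -4.55 at D85, -4.67 to -5.14 at D105 and -5.96 to -6.47 at D135. KLHL31 was at -3.23 to -3.69, -3.82 to -4.16 and -4.51 to -4.74, and no other member fell without overlap. KLHL40 itself changed by -0.41 between D135 and D85, beside a median of -0.35 over all tested loci. Whether NEB and LMOD3 differ in this from other fibre genes was not tested.

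The ratios of KLHL41 share the values whose dip at D105 is given above, so they are not separate evidence of that dip. KLHL41 was lowest at D105 relative to its partners. Its log2 ratio to NRAP was 4.18, 3.47 and 3.77 at D85, 0.86, 1.23 and 1.76 at D105 and 2.01, 2.96 and 3.2 at D135 (exact permutation p = 0.00357, adjusted p = 0.00714). The days did not overlap, and D135 lay between D105 and D85. Its ratio to NEB averaged 0.38 ± 0.53 at D85, -2.12 ± 0.18 at D105 and -0.57 ± 0.95 at D135 (SD, n = 3; exact permutation p = 0.0107, adjusted p = 0.0161). Without D105 replicate 1, 2 or 3 the adjusted p of the ratio to NEB was 0.0696, 0.0686 and 0.0686, and that of the ratio to NRAP was 0.0571 without D105 replicate 1.

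The ratio of KLHL41 to KLHL40, the paralogs of nemaline myopathy, was 5.50, 4.89 and 5.07 at D85, 2.88, 3.27 and 3.15 at D105 and 4.29, 5.95 and 6.62 at D135. D105 was below all other libraries, while D85 and D135 overlapped (exact permutation p = 0.0214, adjusted p = 0.0257). The adjusted p was 0.0514 without D85 replicate 3 and 0.0771, 0.0686 and 0.0686 without D105 replicate 1, 2 or 3. The ratio of KLHL31 to FLNC averaged -3.47 ± 0.20 at D85, -3.40 ± 0.36 at D105 and -3.03 ± 0.16 at D135, which did not pass (SD, n = 3; exact permutation p = 0.179, adjusted p = 0.179).

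**Figure D4:**
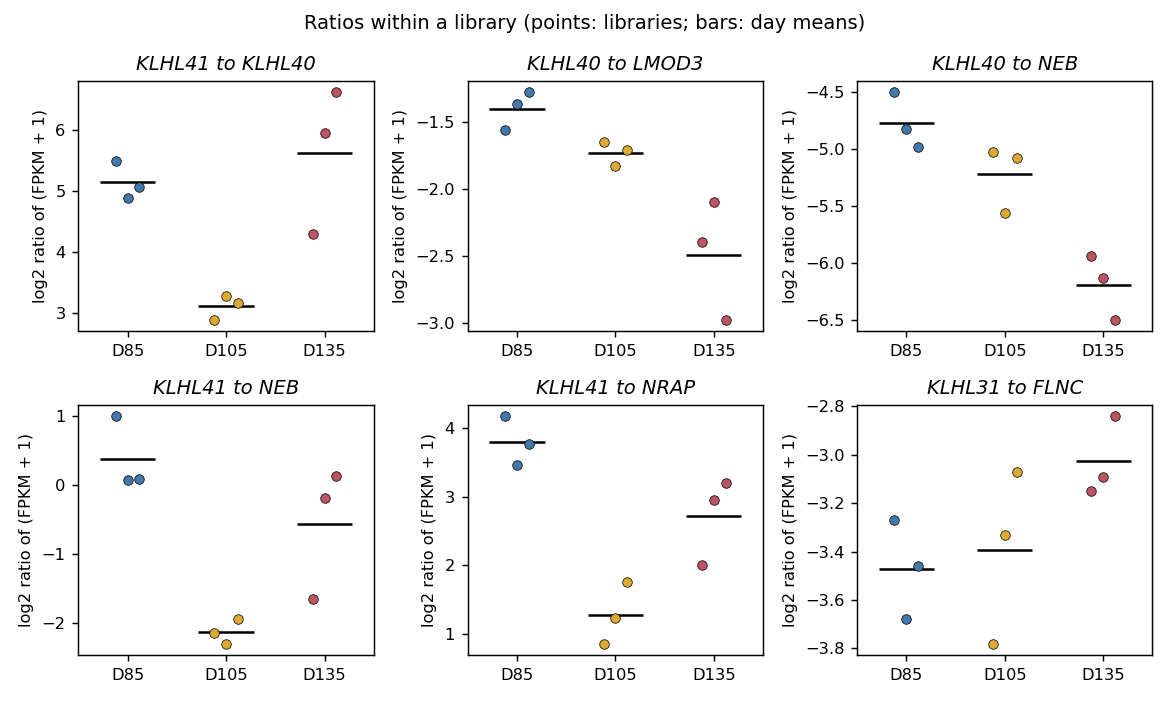
Log2 ratios of FPKM + 1 between paired genes within each library (points) by gestation day, with day means as bars; each panel has its own axis. The ratios of KLHL40 to LMOD3 and to NEB are lower on each later day, and the 3 ratios of KLHL41 are lowest at D105.

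The machinery that kelch adaptors plug into was described through a list of its genes. Of 25 listed genes of the cullin 3 ligase core and its regulators, 24 were tested. For D105 against D85 limma called 0 of them, with 2 at an unadjusted p under 0.05. For D135 against D85, 1 rose, 6 fell and 17 did not pass, but 5 were higher and 0 lower on median-of-ratios values and 3 higher and 0 lower on quantile values, so the list has no direction that holds under each scaling. As deposited, 25% of its members were lower, beside 39.7% of all tested loci.

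Among these genes COPS4 and COPS3, subunits of the signalosome that strips NEDD8 from cullins, had the highest means. COPS4 averaged 37.1 FPKM at D135 and 26.7 FPKM at D85, which did not pass (log2 change 0.43, adjusted p = 0.0745). COPS4 did pass with 0.89 on median-of-ratios values (adjusted p = 0.00791), 0.61 on quantile values (adjusted p = 0.0303), 0.56 with totals set without the 50 highest loci (adjusted p = 0.0324) and 0.65 without D135 replicate 3 (adjusted p = 0.00458). COPS3 fell to 24.6 FPKM at D135 against 33.8 FPKM at D85 (log2 change -0.44, adjusted p = 0.00494, and 0.02 after median-of-ratios scaling). COPS8 of the same complex had a called change of 0.55 (adjusted p = 0.0473), but with any 1 of the D85 or D135 libraries or D105 replicate 3 left out its adjusted p was 0.0579 to 0.11. CAND1, the exchange factor of cullin adaptors, fell by 0.67 on the log2 scale (adjusted p = 0.00185), and UBE2F, a NEDD8-conjugating enzyme, fell by 0.63 (adjusted p = 0.0142). After median-of-ratios scaling neither passed (adjusted p = 0.228 and 0.383). DCUN1D5, a NEDD8 ligase, had a called change of -0.61 at the locus used, but 0.12 when both loci of that name were summed.

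The other BTB-kelch genes were counted in the same way. Of 43 listed genes 40 were in the table and 30 were tested. For D105 against D85 limma called 0, with 4 at an unadjusted p under 0.05. For D135 against D105, 1 rose, 7 fell and 22 did not pass, where 4.47% of loci were called higher and 35% lower. For D135 against D85, 1 rose, 10 fell and 19 did not pass. The share lower, 33.3%, was under the 39.7% of all tested loci, and the share higher, 3.33%, was under 6.9%. The difference from the muscle kelch genes was not tested. Their median log2 change for D135 against D85 was -0.37, beside 0.66 for the 7 muscle kelch genes and -0.35 for all loci. On median-of-ratios values 5 of the 30 rose and 3 fell for D135 against D85, where 1952 of 13086 loci were higher and 1642 lower. On quantile values 4 rose and 3 fell, where 1599 loci were higher and 1943 lower.

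The gene that rose was KBTBD12, a little described relative. It averaged 2.12 ± 0.576 FPKM at D85, 5.47 ± 1.60 FPKM at D105 and 12.9 ± 3.09 FPKM at D135 (SD, n = 3), with a log2 change of 2.15 ± 0.23 SE for D135 against D85 (adjusted p = 0.000415). KLHL13, an adaptor that acts in mitosis, fell to 1.96 ± 0.268 FPKM at D135 against 7.29 ± 0.970 FPKM at D85 (log2 change -1.48 ± 0.12 SE, adjusted p = 0.000183). ENC1, known from neurons, fell to 1.62 ± 0.025 FPKM at D135 against 5.91 ± 2.03 FPKM at D85 (log2 change -1.36 ± 0.18 SE, adjusted p = 0.00091). The calls of these 3 genes held under median-of-ratios scaling and quantile normalization.

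KLHL5 had a called change of -0.65 and KLHL17, which binds actin in rat neurons, one of -0.78, which did not pass after median-of-ratios scaling (adjusted p = 0.0684 and 0.0508). The relatives of highest mean, KLHL24 and IVNS1ABP, did not pass as deposited, with log2 changes of 0.84 and 0.21. Both passed on median-of-ratios values, KLHL24 with 1.29 (adjusted p = 0.0371) and IVNS1ABP with 0.66 (adjusted p = 0.00334). IVNS1ABP also passed on quantile values with 0.5 (adjusted p = 0.01) and with totals set without the 50 highest loci, with 0.33 (adjusted p = 0.0371).

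**Figure D5:**
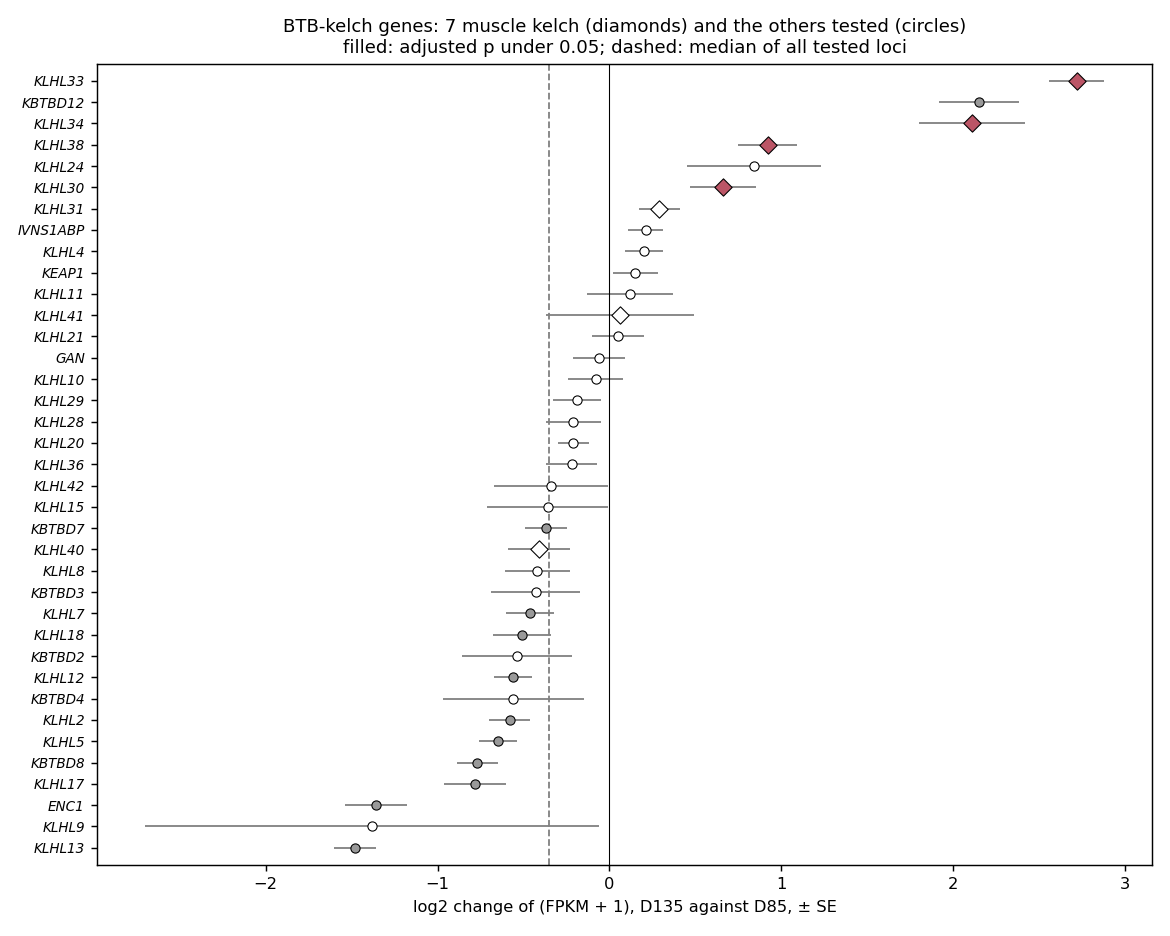
Log2 change of FPKM + 1 for D135 against D85, with its SE, of the 7 muscle kelch genes (diamonds) and the 30 other tested BTB-kelch genes (circles); filled symbols had an adjusted p under 0.05 and the dashed line is the median of all tested loci at -0.35. KLHL33, KLHL34, KLHL38 and KLHL30 are filled on the right, with KBTBD12 as the other gene that rose.

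The genes most like each member were taken as the 3 named loci with the highest Pearson r of log2(FPKM + 1) over the 9 libraries. These values describe 9 libraries that share their day and are not tests. For KLHL33 they were RPL3L, a ribosomal protein of striated muscle (r = 0.988), EEF1A2, the elongation factor of mature muscle and neurons (r = 0.986), and HHATL, a muscle membrane protein (r = 0.984). RPL3L averaged 2.63 FPKM at D85, 10.6 at D105 and 49.5 at D135. For KLHL34 they were ETNPPL, a phospho-lyase of lipid metabolism (r = 0.989), KPNA3, an importin (r = 0.987), and SUCLA2, of the tricarboxylic acid cycle (r = 0.979). For KLHL38 they were PDHB, of pyruvate dehydrogenase (r = 0.965), TMEM245 (r = 0.961) and TOMM40L, of mitochondrial import (r = 0.959).

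For KLHL30 the closest loci were SPTB, a spectrin of the membrane skeleton (r = 0.951), MACROD1 (r = 0.934) and RASGEF1A (r = 0.930). For KLHL31 they were LAMTOR5, of the ragulator complex (r = 0.943), PGK1, a glycolytic enzyme (r = 0.927), and AK1, the muscle adenylate kinase (r = 0.923). For KLHL40 they were IFFO1 (r = 0.956), NBR1, an autophagy receptor (r = 0.954), and DRG2, a GTPase (r = 0.950). KLHL41 had the loosest matches, NDUFA12, of respiratory complex I (r = 0.928), RNF220, a ubiquitin ligase (r = 0.906), and CTXN3 (r = 0.897). NDUFA12 averaged 20.4 ± 3.75 FPKM at D85, 9.31 ± 1.61 at D105 and 32.3 ± 11.2 at D135 (SD, n = 3), and RNF220 was listed at 0 in every D105 library, at a mean of 5.53 FPKM at D85 and of 4.35 FPKM at D135. A 0 in such a table can be a failed estimate, and the r of RNF220 rests on these values.

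Among themselves, the members fell into no single pattern. Over the 9 libraries KLHL33, KLHL34 and KLHL38 had pairwise r of 0.81 to 0.85. KLHL40 had r of -0.11 to -0.77 with the other 6. KLHL41 had r of 0.71 with KLHL31 and 0.0047 with KLHL33.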

How the data were processed

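RNA of 9 longissimus dorsi libraries, 3 per gestation day, was extracted with Trizol and made into libraries with kits for mRNA and for small RNA, per the labels' protocols. The authors deposited FPKM values, 1 column for each library, per the file headers. Cutadapt, Bowtie2 and TopHat2 were used, per the submitters' processing notes. Genome build, assembler, counting and strand: not given in the sources used here. The design text names 2 sequencers but not the libraries run on each, so a batch effect cannot be told apart. FPKM holds no counts, so no count test was run.

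The filter kept 13086 of 22605 loci (1 FPKM or more in 3 or more libraries). On log2(FPKM + 1), limma 3.58.1 (R 4.3.3; linear fit, contrasts, empirical Bayes with a trend) took all 9 libraries in 1 fit, two-sided, with Benjamini-Hochberg adjustment over all tested loci and a threshold of 0.05. The fit was tested on simulated data. A gene was taken at its locus of highest mean FPKM, and 211 loci join several names. Gene order came from a RefSeq table of ARS-UI_Ramb_v3.0, used for names and neighbours. Members and lists were chosen with earlier results of these data known. Named genes were all members, all tested genes of the thin filament and nemaline myopathy list, in the other lists the 3 largest called changes in each direction and the 2 highest means, and the 3 most alike loci per member. Alternatives changed the pseudocount, filter, scaling, variance model, weights, libraries, a replicate block and the locus per name. Plots used matplotlib 3.10.9 (Python 3.11.15).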

Additional observations from a re-analysis of the deposited data

How the results depend on the processing

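The main results were the log2 changes of the members, the counts of loci and of members called, and the ratios. Values of other genes given below are outside this tally. Of 653 alternative values of the main results, 574 kept their direction and their side of the threshold, or stayed within 1.5 times for counts. Another 59 were weaker, 9 stronger and 11 reversed. The causes were not tested. No filter on low values gave 45 loci for D105 against D85. A filter of 5 FPKM, which leaves fewer loci and drops KLHL34, gave 12 loci and 0 members for D105 against D85 (KLHL33 1.37, adjusted p = 0.061), 3271 for D135 against D105, 3715 for D135 against D85 and 3463 for any day. Median-of-ratios scaling gave 2300, 3594 and 2994 loci for these last 3, and changes for D135 against D105 of 0.67 (KLHL30), 0.1 (KLHL40) and 0.28 (COPS3), and for D135 against D85 of 0.74 (KLHL31), 0.01 (KLHL40), 0.32 (FLNC) and 0.02 (COPS3). Quantile normalization gave 2058, 3542 and 2845 loci, 0.03 (KLHL40) and -0.08 (FLNC) for D135 against D105, 0.54 (KLHL31) and -0.08 (KLHL41) for D135 against D85, and 0.03 (MYO18B) for D105 against D85. Totals set without the 50 highest loci gave 0.41 (KLHL31, D135 against D85) and 0 (MYO18B, D105 against D85). Array quality weights gave 0 (TPM3), 0.03 (MYO18B) and 0.02 (KLHL24) for D105 against D85. Summing both loci of DCUN1D5 gave 0.15 (D135 against D105) and 0.12 (D135 against D85). With only the 2 days compared, D105 against D85 had 17 loci, KLHL33 at 1.37 (adjusted p = 0.0975) and KLHL41 at -2.16 (adjusted p = 0.0218). With D135 and D85 alone the adjusted p of the ratios was 0.6 (KLHL41 to KLHL40), 0.15 (KLHL40 to LMOD3, KLHL40 to NEB, KLHL41 to NRAP) and 0.36 (KLHL41 to NEB), in a design that cannot pass.

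Replicate numbers share only a name: deviations of same-numbered libraries correlated by -0.0659 to 0.0605, and 3 of 9 libraries correlated best with their own number. With a replicate block, D105 against D85 had 8 loci and 0 members (KLHL33 1.37, adjusted p = 0.117), and the ratios had adjusted p of 0.1 (KLHL41 to KLHL40), 0.0556 (KLHL40 to LMOD3, KLHL40 to NEB, KLHL41 to NRAP) and 0.0833 (KLHL41 to NEB).

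With 1 library left out, D105 against D85 had 14 to 28 loci (16 without D85 replicate 2 or 3, 14 without D135 replicate 2) and 0 to 2 members, and any day had 3726 to 5409 loci (3726 without D135 replicate 2). Ranges of log2 changes for D105 against D85 were 1.28 to 1.52 (KLHL33), -0.03 to 0.22 (KLHL38), -0.23 to 0.06 (KLHL40), -2.25 to -2 (KLHL41), -0.22 to 0.61 (TPM3), -0.16 to 0.75 (CFL2), -0.01 to 0.26 (MYPN), -0.19 to 0.14 (MYO18B), -0.07 to 0.16 (TMOD1), -0.1 to 0.03 (KLHL5), -0.44 to 0.18 (KLHL24) and -0.31 to 0.06 (ENC1). For D135 against D105 they were 0.38 to 0.52 (KLHL31), -0.02 to 0.2 (FLNC), -0.04 to 0.22 (CFL2), -0.03 to 0.38 (COPS8) and -0.03 to 0.11 (IVNS1ABP). For D135 against D85 they were 0.53 to 0.8 (KLHL30), -0.3 to 0.62 (KLHL41) and -0.04 to 0.86 (CFL2). Adjusted p of the ratios ranged from 0.00714 to 0.0771 (KLHL41 to KLHL40), 0.0696 (KLHL41 to NEB) and 0.0571 (KLHL41 to NRAP).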

Other observations

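Neighbours of the kelch genes in the RefSeq order were measured in the same libraries. FASTKD1, beside KLHL41, averaged 2.70 FPKM at D85, 2.91 at D105 and 2.49 at D135, and no comparison of it passed. BBS5, on its other side, a gene of the primary cilium, fell to 0.885 ± 0.0889 FPKM at D135 against 1.74 ± 0.425 FPKM at D105 (SD, n = 3 each; log2 change -0.53, adjusted p = 0.0185). HHATL, which overlaps KLHL40 in that order, averaged 14.5 ± 1.16 FPKM at D135 and 1.49 ± 0.231 FPKM at D85 (log2 change 2.64, adjusted p = 0.000141). SMPX, a small muscle protein beside KLHL34, averaged 391 ± 60.9 FPKM at D135 and 220 ± 86.8 FPKM at D105 (log2 change 0.89, adjusted p = 0.0331). FBXO32, the muscle ubiquitin ligase atrogin-1 beside KLHL38, was at 1.24 ± 0.522 FPKM at D135 and 0.420 ± 0.122 FPKM at D85, below the filter, so it was not tested. LRRC1, GCLC, OSGEP, CNKSR2 and ZBTB47, also neighbours of members, passed in no comparison. The neighbours given with values were chosen after the values of the kelch genes were seen.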
